A study of Mus musculus with 12 samples.

Results

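The genes of the major histocompatibility complex (MHC) and of antigen presentation made up 55 of the 53801 genes counted in whole mouse hearts after acute myocardial infarction (AMI). They were chosen by symbol. The symbol begins with H2-, the prefix of the mouse MHC, in 45 of them, and the other 10 are *B2m*, *Cd74*, *Ciita*, *Nlrc5*, *Tap1*, *Tap2*, *Tapbp*, *Cd80*, *Cd86* and *Cd1d1*. By their products, 33 belong to class I, 11 to class II and 2 are costimulators, while 8 are pseudogenes and *H2-Ke6* encodes an enzyme and no MHC chain. The class I count includes *H2-Q5*, *H2-T10* and *H2-Bl*, which are annotated as polymorphic pseudogenes, as is *H2-Ea-ps*, counted among the 8. Chromosome 17, which carries the mouse MHC, holds 48 of the 55. The hearts came from adult male mice of the inbred strain C57BL/6N, with no transgene or deletion in any group. In 4 mice the heart was taken 1 day after permanent ligation of the left anterior descending coronary artery (day 1 AMI), in 4 it was taken 7 days after ligation (day 7 AMI), and 4 were sham mice (sham). Infarct, border and remote muscle were not separated, the day on which sham hearts were taken is not given heart by heart, and one replicate number stands for different mice in the 3 groups.

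Class I molecules sit on almost every nucleated cell and show peptides made inside the cell to CD8+ T cells. They consist of a heavy chain and the light chain β2-microglobulin, and are filled with peptides that the TAP transporter pumps into the endoplasmic reticulum. Class II molecules, carried mainly by macrophages, dendritic cells and B cells, show peptides from ingested proteins to CD4+ T cells, and their genes are switched on by the transactivator *Ciita*, as class I genes are by *Nlrc5*. Interferon-γ is a strong inducer of both classes.

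Depth ran from 23204551 to 32166517 counts a library. Levels are CPM, counts scaled to a common library size, after TMM normalization, which corrects for transcripts that take up much of a library, with factors between 0.781 and 1.17, and on this scale 3 counts, taken as the floor of a library, were 0.0895 to 0.156 CPM. In RNA from whole hearts, a change in the number of cells of a type and a change in the RNA of each cell cannot be told apart. Cardiomyocyte markers, 6 of 6 detected, summed to 54289 to 63418 CPM in sham. They fell to 29336 to 40670 CPM in day 1 AMI and 24978 to 30535 CPM in day 7 AMI. Sham replicate 2 stood out for red blood cell genes, with 4450 CPM against 491 to 1178 CPM in the other 3 sham hearts. It also had the highest sham sum of neutrophil markers, 53.6 CPM against 2.25 to 29.3 CPM. Of the antigen presentation genes, 32 had enough counts to be tested. The other 23 are 15 class I genes, 7 pseudogenes and *H2-Eb2* of class II, and 16 of them had 0 counts in all 12 hearts.

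Genes of both classes rose after AMI, and more of them had done so on day 7 than on day 1. Differentially expressed genes (DEGs) were those with at least a 2-fold change (fold change, FC) and a false discovery rate (FDR, the adjusted p) under 0.05 in edgeR's quasi-likelihood test over 15306 genes. In day 1 AMI against sham, 10 of the 32 tested genes were higher DEGs, where 7.79% of all tested genes were, and 0 were lower DEGs, where 2.98% of all tested genes were. At an FDR below 0.05 alone, 17 rose and 1 fell, against 22.0% and 19.9% of all tested genes. In day 7 AMI against sham, 23 were higher DEGs and 1 was a lower DEG, beside 15.3% and 5.88% of all tested genes, and 26 rose and 1 fell by FDR alone, beside 30.9% and 28.4%. Between day 1 and day 7, 9 were higher DEGs and 1 was a lower DEG, beside 8.55% and 2.69%, and 19 rose and 2 fell by FDR alone, beside 24.2% and 22.8%. Hearts of the later group all lay above those of the earlier one for 17 genes in day 1 AMI against sham, 25 in day 7 AMI against sham and 13 in day 7 against day 1 AMI, where 19.6%, 28.3% and 23.5% of all tested genes did. They all lay below for 1, 1 and 2 genes, where 17.1%, 24.7% and 20.9% of all tested genes did. These counts describe genes that passed a filter on low counts. *H2-Q10*, *H2-Oa*, *Cd80* and *H2-DMb2* had at most 13 counts in any sham heart, so they entered through the infarcted hearts. The count of higher DEGs between day 1 and day 7 fell from 9 to 5 without day 7 AMI replicate 4, and the 1 lower DEG of day 7 AMI against sham, *H2-Ke6*, dropped below the 2-fold limit without day 7 AMI replicate 2, which left 0. Calls were also made with libraries scaled by their totals alone, and by limma on log2(TPM + 1) or log2(TPM + 0.1), where TPM is a length-corrected share of the library. On the scale of library totals the log2 FC of the median gene was higher by 0.27, 0.40 and 0.13 in the 3 comparisons, and by limma on log2(TPM + 1) by 0.28, 0.45 and 0.17, so a call gained there is not relative to the median gene.

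By class, the counts were as follows, for day 1 AMI against sham, day 7 AMI against sham and day 7 against day 1 AMI. Over all tested genes, 22.0%, 30.9% and 24.2% rose by FDR alone in these comparisons. As higher DEGs, 7.79%, 15.3% and 8.55% of all tested genes were called. In day 1 AMI against sham, 12 of 18 tested class I genes rose, 5 of them as DEGs, with a median log2 FC of 0.67. In class II, 4 of 10 rose, all 4 as DEGs, with a median of 0.54, beside -0.01 over all tested genes. By day 7, 14 of the 18 class I genes were above sham, 11 as DEGs, with a median of 1.25, and 10 of 10 class II genes were, all as DEGs, with a median of 1.93, beside 0.03 over all tested genes. Between the AMI groups, 9 class I genes rose and 1 fell, with a median of 0.61, whereas 8 class II genes rose and 7 of these were DEGs, with a median of 1.22, beside 0.02 over all tested genes. Only 1 of the 18 class I genes was a higher DEG between day 1 and day 7, a share below that of all tested genes. That count became 4 without day 1 AMI replicate 1, 4 without day 7 AMI replicate 1, 3 without day 7 AMI replicate 2, 2 without day 7 AMI replicate 3, and 0 without day 1 AMI replicate 2, day 1 AMI replicate 4 or day 7 AMI replicate 4. For class II, 7 became 4 without day 7 AMI replicate 4. Whether the 2 classes differ was tested with ratios within each heart, given after the costimulators.

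**Figure D1:**
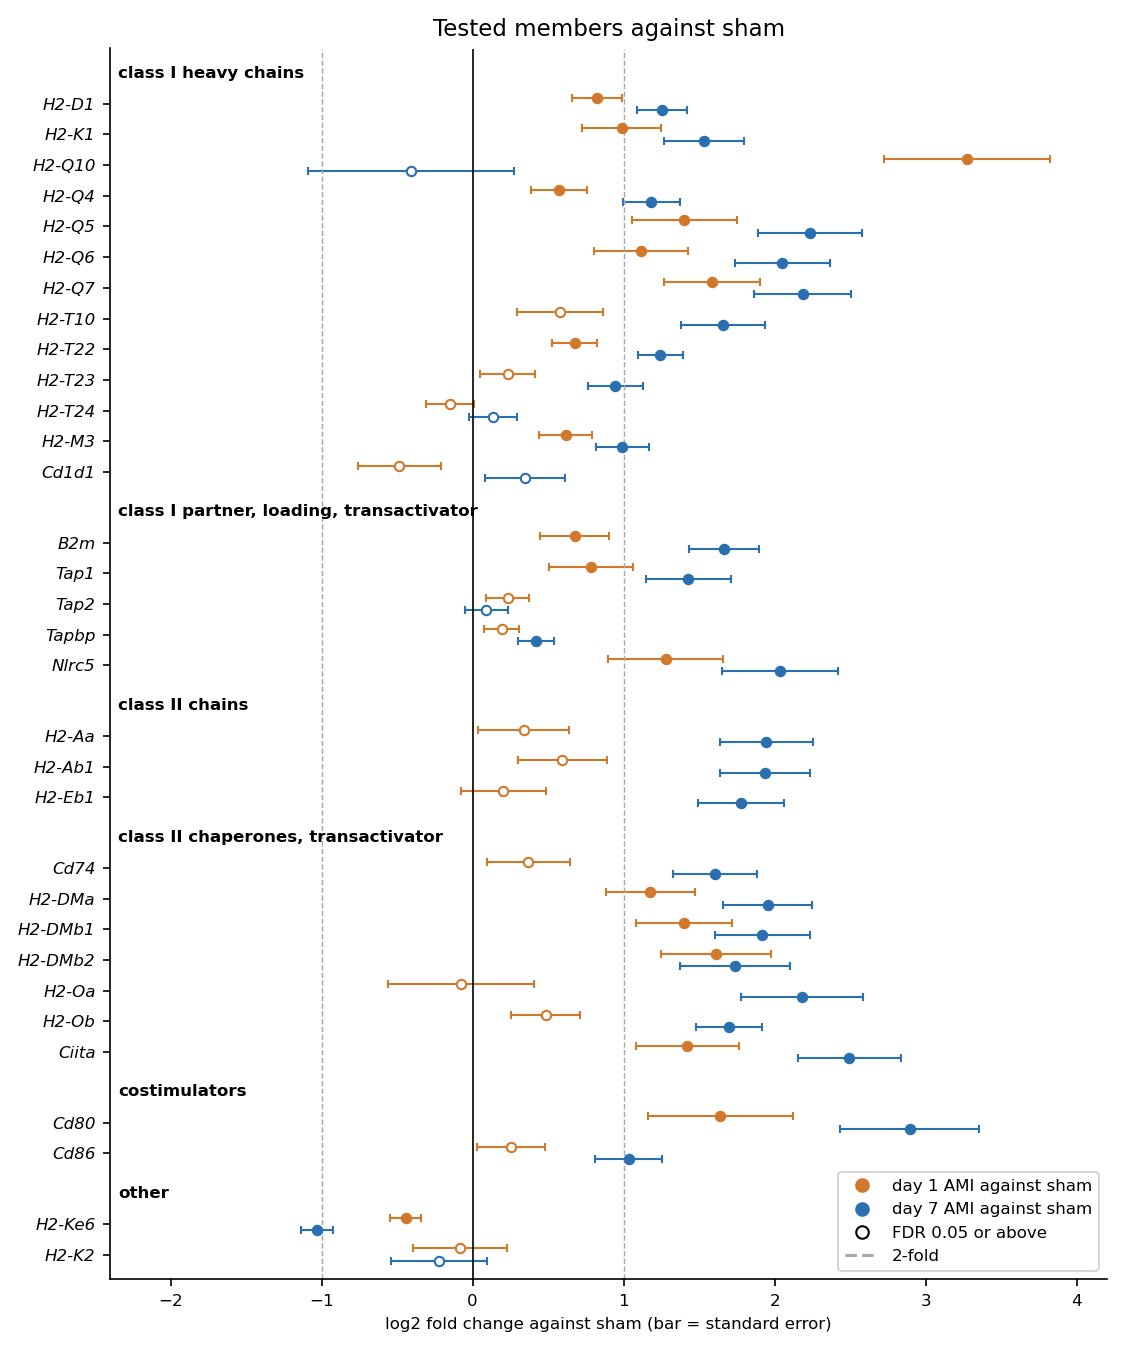
Log2 FC against sham (x axis) with its standard error for the 32 tested genes, grouped by role, in day 1 AMI (orange) and day 7 AMI (blue), where filled points have an FDR below 0.05 and dashed lines mark 2-fold. The 10 class II genes all lie beyond 2-fold on day 7, at log2 FCs of 1.60 to 2.49, and *H2-Q10* alone is far above sham on day 1, at 3.27, and back near it on day 7, at -0.41.

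The classical class I heavy chains, *H2-K1* and *H2-D1*, bind and display most class I peptides. *H2-K1* (chr17:33996017-34000347, mm10) stood at 154, 156, 112 and 140 CPM in the 4 sham hearts, 415, 260, 258 and 180 CPM in day 1 AMI, and 324, 296, 353 and 654 CPM in day 7 AMI. Every infarcted heart was above every sham heart, and the day 1 and day 7 hearts overlapped. The log2 FC against sham was 0.99 ± 0.26 (SE) on day 1 (adjusted p = 0.00795) and 1.53 ± 0.26 on day 7 (adjusted p = 0.00018). *H2-D1* (chr17:35262730-35267499) had 175, 211, 162 and 181 CPM in sham, 388, 328, 309 and 261 CPM in day 1 AMI, and 418, 330, 393 and 596 CPM in day 7 AMI, again with no overlap between sham and either AMI group. Its log2 FC was 0.82 ± 0.16 on day 1 (adjusted p = 0.00141) and 1.25 ± 0.17 on day 7 (adjusted p = 1.89e-05). Between the AMI groups, *H2-D1* rose by 0.43 ± 0.16 (adjusted p = 0.0426). That last call was lost without sham replicate 1 or 4, day 1 AMI replicate 2, 3 or 4, or day 7 AMI replicate 1 or 4, with adjusted p between 0.0526 and 0.179. *H2-K1* did not pass that comparison, at 0.55 ± 0.26 (adjusted p = 0.096), and passed without day 1 AMI replicate 1 (adjusted p = 0.019), by library totals (adjusted p = 0.0459) and by limma on log2(TPM + 1) and log2(TPM + 0.1) (adjusted p = 0.0328 and 0.0342).

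The promoters of *H2-D1* and *B2m* are shown because the heavy and the light chain of one molecule are encoded on 2 chromosomes and were both measured here. They come from RefSeq on GRCm38.p6, run from 250 bases before to 50 after the start site, and lie at chr17:35262844-35263143 on the plus strand (*H2-D1*) and chr2:122147437-122147736 on the plus strand (*B2m*). Capitals mark matches to 3 motifs searched on both strands. These are the core of the Y box, GATTGG or its reverse complement CCAATC, a part of the module that MHC promoters share, the interferon-stimulated response element (ISRE), searched as 2 GAAA repeats with 2 bases of any kind between them, and the interferon-γ activated site (GAS element), TTCNNNGAA.
H2-D1: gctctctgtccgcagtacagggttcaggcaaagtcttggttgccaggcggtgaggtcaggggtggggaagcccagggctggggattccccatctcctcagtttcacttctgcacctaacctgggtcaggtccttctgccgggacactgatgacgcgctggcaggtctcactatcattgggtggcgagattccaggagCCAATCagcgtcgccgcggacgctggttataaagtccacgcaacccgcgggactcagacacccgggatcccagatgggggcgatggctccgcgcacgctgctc
B2m: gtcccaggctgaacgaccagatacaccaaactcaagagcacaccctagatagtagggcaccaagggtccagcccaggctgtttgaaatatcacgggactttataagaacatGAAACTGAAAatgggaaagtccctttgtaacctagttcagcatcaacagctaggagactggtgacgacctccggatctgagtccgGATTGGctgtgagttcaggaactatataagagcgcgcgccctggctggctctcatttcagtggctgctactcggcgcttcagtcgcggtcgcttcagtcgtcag
*H2-D1* held the core as CCAATC, its first base at position -53 from the start site, where -1 is the base just before it. *B2m* held it as GATTGG at -54 and also a match to the ISRE pattern at -139. RefSeq promoters of 36 of the 55 genes were searched, and a gene counted where any of its windows matched. *Cd74*, *Ciita* and *H2-Ab1* of class II were not among the genes searched, so the class II counts below do not cover them. The Y box core was in 18 of 25 class I and 8 of 8 class II genes, and in 16.1% of all 32851 mouse promoters in the table. An exact match to the ISRE pattern was in 3 class I genes (*B2m*, *H2-T22* and *H2-T23*) and 0 class II genes, and in 3.44% of all promoters. The GAS element was in 2 class I genes and 1 class II gene, and in 8.30% of all promoters. Variants of the ISRE pattern were not counted. For example, tttcacttct in the printed *H2-D1* window resembles its reverse complement. A gene without a match may therefore still hold such an element. No matches of different motifs overlapped. The related class I genes share ancestry, so their promoters are not independent of one another.

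The Q region genes encode non-classical class I heavy chains, and 5 of the 7 were tested. *H2-Q7*, which encodes a Qa-2 chain, had 6.79 to 12.0 CPM in sham, 36.9, 26.9, 30.0 and 16.8 CPM in day 1 AMI, and 26.0, 30.4, 37.3 and 73.7 CPM in day 7 AMI. All infarcted hearts were above all sham hearts, and the 2 AMI groups overlapped. Its log2 FC was 1.58 ± 0.32 on day 1 (adjusted p = 0.00147) and 2.18 ± 0.32 on day 7 (adjusted p = 4.84e-05). *H2-Q5* and *H2-Q6* were also DEGs on both days, at 1.40 and 1.12 on day 1 and 2.23 and 2.05 on day 7 on the log2 scale, and *H2-Q4* rose by 0.57 on day 1 and 1.18 on day 7. The *H2-Q4* call of day 1 was lost without sham replicate 3 or day 1 AMI replicate 1, with adjusted p of 0.0745 and 0.0742. These genes resemble each other, and of the stretches of 75 bases in their transcripts, which are shorter than the reads, 21.1% of *H2-Q6*, 21.2% of *H2-Q5* and 20.7% of *H2-Q4* also occur in another gene, and 8.88% of *H2-Q7* occur in *H2-Q10*. How reads that match several genes were counted is not given in the sources used here, so the split between these 4 genes is uncertain. For *H2-Q4*, 13.4% is shared with *Gm11131*, which overlaps it on the opposite strand.

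*H2-Q10*, known as a secreted class I chain made mainly in the liver, was above sham on day 1 and not on day 7. It had 1, 13, 6 and 4 counts in the sham hearts (0.0522, 0.534, 0.291 and 0.191 CPM), 94, 143, 39 and 55 counts in day 1 AMI (3.59, 4.27, 1.28 and 1.73 CPM), and 7, 1, 7 and 9 counts in day 7 AMI (0.216, 0.0386, 0.258 and 0.306 CPM). The 4 day 1 hearts were above all the others, and sham and day 7 hearts overlapped. It rose 9.66-fold on day 1, a log2 FC of 3.27 ± 0.55 (adjusted p = 0.000414), the largest change of any tested member in that comparison. It fell by 3.68 ± 0.55 on the log2 scale from day 1 to day 7 (adjusted p = 0.000109), and on day 7 its log2 FC against sham was -0.41 ± 0.68 (adjusted p = 0.627). Without sham replicate 2, which has 13 counts, the day 1 change was 14.7-fold. Of its 75-base stretches, 12.5% occur in another gene, and the largest part, 9.07%, in *H2-Q7*. *H2-Q7* had a mean of 41.9 ± 21.7 CPM on day 7 (SD, n = 4), when *H2-Q10* was near its sham level. Whether reads of *H2-Q7* were counted for *H2-Q10* was not tested.

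The promoters of *H2-Q6* (chr17:35424600-35424899) and *H2-Q10* (chr17:35469839-35470138), both on the plus strand, are set side by side because *H2-Q10* fell from day 1 to day 7 and *H2-Q6* did not. Capitals mark the core in *H2-Q6* and, in *H2-Q10*, the 6 bases aligned with it.
H2-Q6: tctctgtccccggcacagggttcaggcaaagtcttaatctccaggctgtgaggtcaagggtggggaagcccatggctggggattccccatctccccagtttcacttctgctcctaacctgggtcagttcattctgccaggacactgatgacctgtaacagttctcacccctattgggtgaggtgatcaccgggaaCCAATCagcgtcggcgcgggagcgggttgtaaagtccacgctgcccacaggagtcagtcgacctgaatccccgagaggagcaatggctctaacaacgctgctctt
H2-Q10: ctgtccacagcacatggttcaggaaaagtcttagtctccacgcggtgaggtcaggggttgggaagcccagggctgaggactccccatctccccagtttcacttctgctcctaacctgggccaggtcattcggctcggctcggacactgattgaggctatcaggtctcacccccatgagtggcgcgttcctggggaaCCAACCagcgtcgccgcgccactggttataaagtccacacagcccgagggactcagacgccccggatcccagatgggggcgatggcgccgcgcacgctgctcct
The windows were identical at 233 of 295 aligned bases (79.0%). The core CCAATC of *H2-Q6* begins at -55. The aligned bases of *H2-Q10*, at -54, differed by T5C, with positions counted from 1 at the left end of the core and the *H2-Q6* base first, so *H2-Q10* had no match to the core in this window. *H2-Q2*, which had at most 2 counts in any heart, carried the same T5C. The core was present in other genes with no reads, such as *H2-M1* and *H2-M11*, at 0 counts in every heart. A part of the core in any of these levels was not tested.

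**Figure D2:**
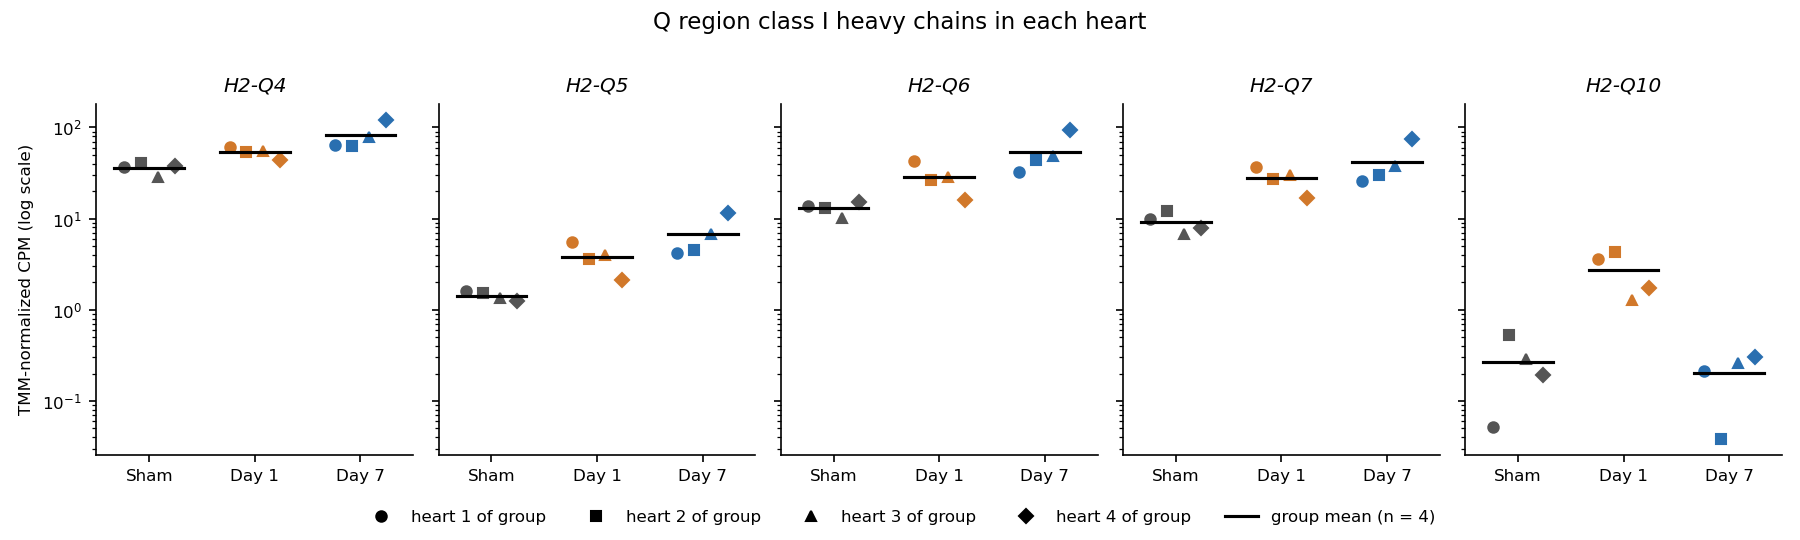
TMM-normalized CPM on a log scale (y axis) of 5 Q region heavy chain genes in each of the 12 hearts (x axis, group), with a marker shape for each heart and a line at the group mean. *H2-Q4* to *H2-Q7* are higher in both AMI groups, while the 4 day 1 hearts of *H2-Q10*, at 1.28 to 4.27 CPM, stand above all sham and day 7 hearts, at 0.0386 to 0.534 CPM.

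Among the other non-classical heavy chains, *H2-T22* and *H2-T10* encode ligands of γδ T cells, *H2-T23* encodes Qa-1, which displays leader peptides to natural killer cells, *H2-M3* displays N-formylated peptides, and *Cd1d1* displays lipids to natural killer T cells. *H2-T22* rose by 0.68 ± 0.15 on day 1 (adjusted p = 0.00283) and was 1.24 ± 0.15 above sham on day 7 (adjusted p = 8.64e-06), from 15.3 to 21.9 CPM in sham to 26.9 to 35.0 and 38.2 to 61.2 CPM. The 3 groups of hearts did not overlap. *H2-T10*, annotated as a polymorphic pseudogene, had 0.679 to 1.67 CPM in sham, 1.37 to 2.29 CPM in day 1 AMI and 3.21 CPM or more in day 7 AMI. It was the 1 gene counted in class I that was a higher DEG from day 1 to day 7, at 1.08 ± 0.26 (adjusted p = 0.0039). *H2-T10* and *H2-T22* share 36.0% and 40.0% of their 75-base stretches with other genes, so the split between them and their neighbours is uncertain. *H2-T23* was at 0.23 ± 0.18 on day 1 (adjusted p = 0.329) and rose by 0.94 ± 0.18 on day 7 (adjusted p = 0.000485), and it passed on day 1 by limma on log2(TPM + 1) and log2(TPM + 0.1) (adjusted p = 0.0344 and 0.0328). *H2-T10*, at 0.58 ± 0.29 on day 1 (adjusted p = 0.117), passed on that day by the same fits and by library totals (adjusted p between 0.0136 and 0.0263). *H2-M3* rose by 0.62 ± 0.18 (adjusted p = 0.0119) and 0.99 ± 0.17 (adjusted p = 0.000221). *H2-T24* had 7.32 to 9.96 CPM in sham and 7.96 to 11.4 CPM in day 7 AMI and did not pass in edgeR with TMM, but passed on day 7 against sham by library totals and 3 limma fits (adjusted p between 0.00737 and 0.0193) and against day 1 by 2 of them (adjusted p = 0.0347 and 0.0366). *Cd1d1* had 1.46 to 4.21 CPM in sham, 1.37 to 2.24 CPM in day 1 AMI and 3.14 to 3.67 CPM in day 7 AMI. It rose from day 1 to day 7 by 0.83 ± 0.27 (adjusted p = 0.0195), and did not pass without day 1 AMI replicate 3 or 4 (adjusted p = 0.0611 and 0.0503). *Cd1d1* did not pass against sham on day 7, at 0.35 ± 0.27 (adjusted p = 0.278). It passed there without sham replicate 4, at 0.67 (adjusted p = 0.028), and by library totals and 3 limma fits, at 0.74 to 1.16 (adjusted p between 0.0061 and 0.0288), and it fell on day 1 only without sham replicate 1, at -0.68 (adjusted p = 0.0464). With all hearts its day 1 value was -0.48 ± 0.27 (adjusted p = 0.171), and it was 0.04 to 0.10 by limma on TPM.

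*B2m* encodes β2-microglobulin. Its levels were 225, 160, 128 and 155 CPM in sham, 361, 261, 265 and 179 CPM in day 1 AMI, and 418, 496, 449 and 755 CPM in day 7 AMI. All day 7 hearts were above all others, while day 1 AMI replicate 4 lay within the sham range. The log2 FC was 0.67 ± 0.23 on day 1 (adjusted p = 0.0275), 1.67 ± 0.23 on day 7 (adjusted p = 2.76e-05) and 0.99 ± 0.23 from day 1 to day 7 (adjusted p = 0.00263). The day 1 call was lost without sham replicate 2, 3 or 4 or day 1 AMI replicate 1, with adjusted p between 0.0542 and 0.103.

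*Tap1* rose on both days and *Tapbp* on day 7, while the calls of *Tap2* and of *Tapbp* on day 1 depended on the scaling. *Tap1*, a subunit of the peptide transporter, had 14.8, 22.9, 14.5 and 15.5 CPM in sham, 28.5, 38.0, 25.3 and 25.0 CPM in day 1 AMI, and 35.0, 34.5, 31.3 and 81.8 CPM in day 7 AMI. Its AMI hearts were all above its sham hearts. It rose by 0.78 ± 0.28 on day 1 (adjusted p = 0.0363) and 1.43 ± 0.28 on day 7 (adjusted p = 0.000532). The day 1 call was lost without sham replicate 1, 3 or 4 or day 1 AMI replicate 1 or 2, with adjusted p between 0.0612 and 0.113. Between the AMI groups its log2 FC of 0.65 ± 0.27 (adjusted p = 0.0639) did not pass. It passed without day 1 AMI replicate 2, day 7 AMI replicate 1 or day 7 AMI replicate 3 (adjusted p = 0.0386, 0.0469 and 0.033), and without the filter on low counts, by library totals and by 2 limma fits (adjusted p between 0.0359 and 0.0431). *Tap2*, the other subunit, had 29.5 to 42.3 CPM in sham, 38.8 to 43.0 CPM in day 1 AMI and 29.9 to 47.8 CPM in day 7 AMI, and its groups overlapped. Its log2 FCs were 0.23 ± 0.14, 0.09 ± 0.14 and -0.14 ± 0.14 in the 3 comparisons (adjusted p = 0.204, 0.6 and 0.43). By library totals and 3 limma fits *Tap2* passed against sham on day 1, at 0.49 to 0.57 (adjusted p between 0.0188 and 0.0492), and on day 7, at 0.48 to 0.67 (adjusted p between 0.00489 and 0.0220). *Tapbp*, which encodes tapasin, the bridge between transporter and class I molecule, rose on day 7 by 0.42 ± 0.12 (adjusted p = 0.00723), with 82.7 to 103 CPM in sham and 100 to 147 CPM in day 7 AMI. On day 1 it was at 0.19 ± 0.12 (adjusted p = 0.212), and it passed there by library totals and 3 limma fits (adjusted p between 0.0159 and 0.0497). Of the 75-base stretches of *Tapbp*, 18.6% also occur in another gene, 17.5% in *Gm19412*. The transporter needs both subunits. In TPM *Tap2* was at 14.3 ± 3.38 and *Tap1* at 6.70 ± 1.98 in sham (SD, n = 4), with *Tap2* the higher in every heart, whereas in day 7 AMI the 2 genes overlapped, at 23.0 ± 6.08 and 27.6 ± 15.5.

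*Nlrc5*, the class I transactivator, had 6.36, 7.15, 3.44 and 3.25 CPM in sham, 11.7, 16.1, 10.6 and 10.8 CPM in day 1 AMI, and 14.0, 13.1, 14.0 and 42.1 CPM in day 7 AMI. The sham hearts lay below all AMI hearts, and day 7 AMI replicate 4 was far above the other 3 of its group. The log2 FC was 1.28 ± 0.38 on day 1 (adjusted p = 0.0154) and 2.04 ± 0.38 on day 7 (adjusted p = 0.000371), a change of 4.10-fold that was 2.70-fold without day 7 AMI replicate 4. Its day 1 call was lost by limma on log2(TPM + 1) without a filter, at 0.97 (adjusted p = 0.1).

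The class II chains did not pass in edgeR with TMM on day 1, where *H2-Ab1* depended on the setting, and were DEGs on day 7. *H2-Aa* (chr17:34282744-34287823), an α chain, had 26.8, 16.3, 34.8 and 41.1 CPM in sham, 39.5, 38.8, 38.7 and 33.3 CPM in day 1 AMI, and 97.2, 77.3, 80.0 and 203 CPM in day 7 AMI. *H2-Ab1* (chr17:34257689-34269419), its β chain partner, had 21.3, 18.2, 33.8 and 36.4 CPM in sham, 43.1, 43.3, 41.9 and 37.1 CPM in day 1 AMI, and 103, 69.6, 63.7 and 182 CPM in day 7 AMI. *H2-Eb1* (chr17:34305867-34316674), another β chain, had 23.3, 20.8, 34.0 and 43.0 CPM in sham, 35.7, 35.4, 36.2 and 32.0 CPM in day 1 AMI, and 101, 66.6, 70.9 and 175 CPM in day 7 AMI. For all 3 chains the day 7 hearts lay above all others. Sham and day 1 hearts overlapped for *H2-Aa* and *H2-Eb1* and just missed each other for *H2-Ab1*, and sham replicates 3 and 4 were above sham replicates 1 and 2. The log2 FC of day 1 AMI against sham was 0.34 ± 0.30 for *H2-Aa* (adjusted p = 0.387), 0.59 ± 0.29 for *H2-Ab1* (adjusted p = 0.12) and 0.20 ± 0.28 for *H2-Eb1* (adjusted p = 0.585). *H2-Ab1* passed on day 1 without day 7 AMI replicate 4 (adjusted p = 0.0355), in a fit of only the groups compared (adjusted p = 0.0308), by library totals (adjusted p = 0.0312) and by limma on log2(TPM + 1) and log2(TPM + 0.1) (adjusted p = 0.0254 and 0.0242). After day 1 the chains rose by 1.61 ± 0.30, 1.34 ± 0.29 and 1.57 ± 0.28 (adjusted p = 0.00062, 0.00185 and 0.000423), and against sham they were higher on day 7 by 1.94 ± 0.31, 1.93 ± 0.30 and 1.78 ± 0.28. None of the 75-base stretches of these 3 genes occurs in another gene. *H2-Ea-ps*, the α partner of *H2-Eb1*, which is known to be disrupted in this strain, had 0 counts in all 12 hearts, and *H2-Eb2* had at most 8.

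The promoters of *H2-Aa* (chr17:34287774-34288073, minus strand) and *H2-Eb1* (chr17:34305617-34305916, plus strand) are printed because their genes had the largest log2 FCs from day 1 to day 7 of the 3 tested class II chains, with capitals as above.
H2-Aa: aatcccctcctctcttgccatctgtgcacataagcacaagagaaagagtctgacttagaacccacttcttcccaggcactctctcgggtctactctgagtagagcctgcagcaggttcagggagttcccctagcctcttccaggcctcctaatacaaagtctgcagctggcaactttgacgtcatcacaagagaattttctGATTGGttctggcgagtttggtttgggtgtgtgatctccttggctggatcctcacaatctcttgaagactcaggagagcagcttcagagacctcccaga
H2-Eb1: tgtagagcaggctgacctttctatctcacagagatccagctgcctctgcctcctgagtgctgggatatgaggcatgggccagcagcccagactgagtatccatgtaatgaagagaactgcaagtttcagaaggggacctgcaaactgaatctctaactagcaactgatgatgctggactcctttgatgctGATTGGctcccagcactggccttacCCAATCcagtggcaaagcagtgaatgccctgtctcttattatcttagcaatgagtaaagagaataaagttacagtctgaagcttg
Both held GATTGG, at -49 in *H2-Aa* and -60 in *H2-Eb1*, and *H2-Eb1* held CCAATC at -35 as well. Among class II genes that were searched, GATTGG in this orientation began at -62 in *H2-DMb1*, -91 in *H2-DMb2*, -101 in *H2-Eb2*, -44 in *H2-Oa*, -58 in *H2-Ob* and -199 in one of the windows of *H2-DMa*. In class I, *B2m* held GATTGG, *H2-D1*, *H2-K1*, *H2-Q4*, *H2-Q6* and *H2-Q7* held CCAATC, and *H2-T22* held both, at -89 and -63.

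**Figure D3:**
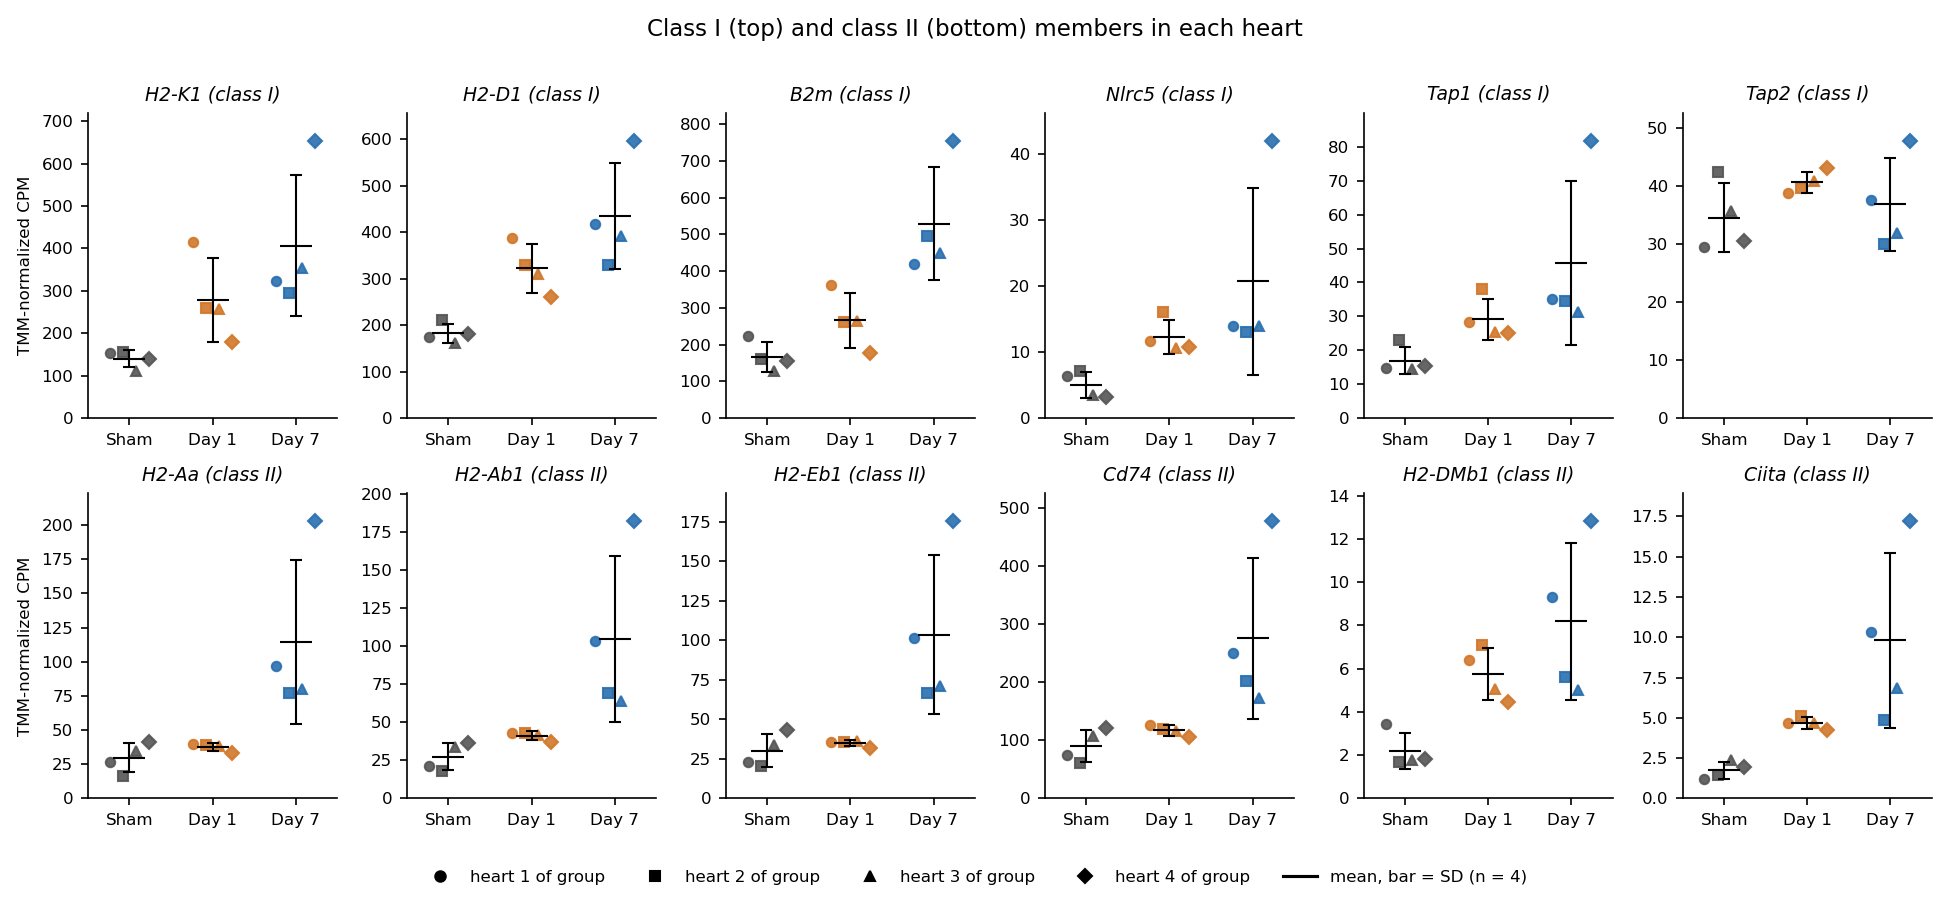
TMM-normalized CPM (y axis) of 6 class I genes (top) and 6 class II genes (bottom) in each of the 12 hearts (x axis, group), with marker shapes for the hearts of a group and a bar for mean ± SD. The 4 day 1 hearts of *H2-Aa* sit between 33.3 and 39.5 CPM, within the sham range of 16.3 to 41.1 CPM, and the day 7 hearts between 77.3 and 203 CPM, and day 7 AMI replicate 4 is the highest heart in all 12 panels.

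*Cd74* encodes the invariant chain, which fills the groove of new class II molecules and carries them to the compartment where peptides are loaded. It had 75.3, 60.3, 107 and 120 CPM in sham, 127, 120, 116 and 105 CPM in day 1 AMI, and 251, 202, 172 and 477 CPM in day 7 AMI. Sham and day 1 hearts overlapped, and all day 7 hearts were above both. The log2 FC was 0.37 ± 0.27 on day 1 (adjusted p = 0.302), 1.60 ± 0.28 on day 7 (adjusted p = 0.000202) and 1.24 ± 0.28 from day 1 to day 7 (adjusted p = 0.00226).

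The DM chains, which exchange the invariant chain fragment for peptide, had already risen on day 1. *H2-DMa* had 2.50, 2.51, 2.72 and 3.87 CPM in sham, 7.04, 7.88, 6.02 and 5.30 CPM in day 1 AMI, and 10.8, 6.84, 7.90 and 19.4 CPM in day 7 AMI. *H2-DMb1* had 3.44, 1.68, 1.79 and 1.82 CPM in sham, 6.39, 7.07, 5.04 and 4.45 CPM in day 1 AMI, and 9.31, 5.60, 5.02 and 12.8 CPM in day 7 AMI. For both genes every AMI heart was above every sham heart, and day 1 and day 7 hearts overlapped. The log2 FC on day 1 was 1.18 ± 0.30 for *H2-DMa* (adjusted p = 0.00592), 1.40 ± 0.32 for *H2-DMb1* (adjusted p = 0.00313) and 1.61 ± 0.36 for *H2-DMb2* (adjusted p = 0.00304), and on day 7 it was 1.95 ± 0.30, 1.92 ± 0.32 and 1.74 ± 0.36. After day 1 *H2-DMa* rose by 0.78 ± 0.27 (adjusted p = 0.0302), and this did not hold without day 1 AMI replicate 1, 3 or 4 or day 7 AMI replicate 4 (adjusted p between 0.0507 and 0.149), whereas *H2-DMb1* was at 0.52 ± 0.29 (adjusted p = 0.156) and *H2-DMb2* at 0.13 ± 0.31 (adjusted p = 0.76). The β chain genes share 15.8% (*H2-DMb1*) and 16.2% (*H2-DMb2*) of their 75-base stretches with other genes, mainly with one another. *H2-DMb2* was the lower of the pair, with 0.156 to 0.485 CPM in sham and 0.656 to 1.41 CPM in day 1 AMI. In TPM its sham and day 1 hearts overlapped, at 0.14 to 1.22 and 1.05 to 3.00.

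*H2-Oa* and *H2-Ob* encode DO, which restrains DM and is known mainly from B cells. *H2-Oa* had 3, 3, 5 and 3 counts in sham, 5, 6, 6 and 2 in day 1 AMI, and 23, 22, 13 and 30 in day 7 AMI, or 0.480 to 1.02 CPM on day 7 against 0.123 to 0.243 CPM in sham. The day 7 hearts lay above all others, and sham and day 1 hearts, most of them near the floor, overlapped. After day 1 it rose by 2.26 ± 0.38 (adjusted p = 0.000288). *H2-Ob* had 0.574 to 0.908 CPM in sham, 0.806 to 1.30 CPM in day 1 AMI and 2.20 to 2.58 CPM in day 7 AMI, with a rise of 1.21 ± 0.20 from day 1 to day 7 (adjusted p = 0.00029). Without day 7 AMI replicate 4 these rises were 2.09 and 1.23. Some 11.8% of the 75-base stretches of *H2-Oa* occur in *BC051537* on the opposite strand, and the strand that was counted is not given in the sources used here. Summed markers of B cells, 5 of 5 detected, ran from 1.85 to 6.06 CPM in sham, 2.43 to 5.59 CPM in day 1 AMI and 4.79 to 5.71 CPM in day 7 AMI, and 1 of the 5 tested, *Cd79b*, rose on day 7. Their part in the DO genes was not tested.

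*Ciita*, the class II transactivator, had 1.20, 1.44, 2.38 and 1.96 CPM in sham, 4.67, 5.13, 4.68 and 4.23 CPM in day 1 AMI, and 10.3, 4.87, 6.86 and 17.2 CPM in day 7 AMI. It was above all sham hearts in every AMI heart, and day 1 and day 7 overlapped through day 7 AMI replicate 2. It rose 2.68-fold on day 1, a log2 FC of 1.42 ± 0.34 (adjusted p = 0.0046), and was 2.49 ± 0.34 above sham on day 7 (adjusted p = 2.48e-05). Between the AMI groups it rose by 1.07 ± 0.31 (adjusted p = 0.0106), and by 0.65 without day 7 AMI replicate 4 (adjusted p = 0.0447). In edgeR with TMM, *Ciita* and the DM genes were DEGs on day 1, and *H2-Aa*, *H2-Ab1*, *H2-Eb1*, *Cd74*, *H2-Oa* and *H2-Ob* did not pass on that day. This division depended on the setting. By limma on log2(TPM + 1) *H2-DMb2* did not pass (adjusted p = 0.0596, and 0.132 without a filter), and without a filter *Ciita* did not either (adjusted p = 0.0537). *Cd74* passed by limma on log2(TPM + 1) and log2(TPM + 0.1) (adjusted p = 0.0448 and 0.0438), and *H2-Ob* passed by library totals and 3 limma fits (adjusted p between 0.0124 and 0.0338), as *H2-Ab1* did in the settings named with it.

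The 2 costimulators bind CD28 on T cells and are known from activated antigen-presenting cells. *Cd80* had 0.156, 0.329, 0.485 and 0.335 CPM in sham, 1.03, 1.64, 0.491 and 0.946 CPM in day 1 AMI, and 4.44, 1.82, 1.77 and 1.80 CPM in day 7 AMI. The 3 groups did not overlap, though the lowest day 1 heart was only just above the highest sham heart. Its log2 FC was 1.64 ± 0.48 on day 1 (adjusted p = 0.0141), 2.89 ± 0.46 on day 7 (adjusted p = 9.33e-05) and 1.26 ± 0.39 from day 1 to day 7 (adjusted p = 0.0157). Leaving out day 1 AMI replicate 2 ended the day 1 call (adjusted p = 0.0535), and the last one ended without day 7 AMI replicate 1 (adjusted p = 0.0825). The day 1 call also ended by limma on log2(TPM + 1) without a filter (adjusted p = 0.0793). *Cd86* had 2.33 to 3.76 CPM in sham, 2.94 to 4.89 CPM in day 1 AMI and 4.80 to 8.16 CPM in day 7 AMI. Its log2 FC of 0.25 ± 0.22 on day 1 did not pass (adjusted p = 0.381), and it was 1.03 ± 0.22 above sham on day 7 (adjusted p = 0.00101). In TPM *Cd86* was at 1.48 ± 0.209 and *Cd80* at 0.253 ± 0.111 in sham, and at 4.67 ± 1.25 and 2.73 ± 1.49 in day 7 AMI (SD, n = 4). *Cd86* was the higher in 11 of 12 hearts, and in day 7 AMI replicate 1 *Cd80* was, at 4.97 against 4.53 TPM.

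To test whether class II moved differently from class I, the log2 ratio of a class II gene to a class I gene was taken within each heart at 3 levels. In such a ratio the scaling of the library cancels, apart from a small prior count added to each gene, which weighs most on genes with low counts. *Ciita* to *Nlrc5* compares the transactivators, *Cd74* to *B2m* the partner chains, and *H2-Ab1* to *H2-K1* the classical chains. *H2-Ab1* to *H2-K1* was -2.85, -3.09, -1.73 and -1.94 in sham, -3.27, -2.58, -2.62 and -2.28 in day 1 AMI, and -1.65, -2.09, -2.47 and -1.84 in day 7 AMI. The sham hearts spanned nearly the whole range of the other groups. The mean rose by 0.68 from day 1 to day 7, with an exact two-sided permutation p of 0.0571 and 0.514 after adjustment over 9 tests, so the difference did not pass. The other 8 differences in mean lay between -0.28 and 0.42, with adjusted p of 0.729 or above. With 4 hearts against 4 the smallest p that the permutations can give is 0.0286. Sham replicates 1 and 2 were lower in all 3 ratios than sham replicates 3 and 4. A p that misses the threshold does not show that the classes moved alike.

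**Figure D4:**
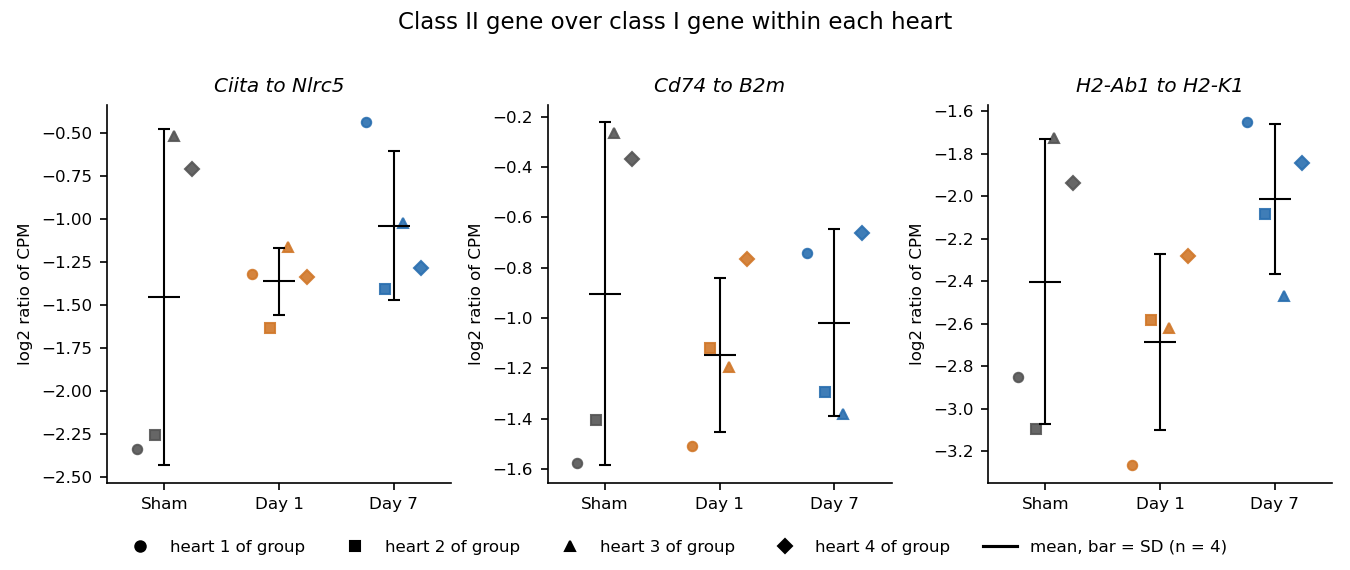
Log2 ratio of CPM within each heart (y axis) of *Ciita* to *Nlrc5*, *Cd74* to *B2m* and *H2-Ab1* to *H2-K1* by group (x axis), with marker shapes for the hearts and a bar for mean ± SD (n = 4). Sham hearts form an upper and a lower pair in each panel, and the 3 groups overlap throughout.

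By TPM, which allows genes to be compared with one another within a library, class I was the more abundant class. The 27 class I heavy chain genes summed to 319 ± 50.5 TPM in sham, 718 ± 153 TPM in day 1 AMI and 1217 ± 455 TPM in day 7 AMI, and the 4 class II chain genes to 107 ± 36.1, 172 ± 7.87 and 591 ± 322 TPM (SD, n = 4). *H2-K1* and *H2-D1* gave 230 ± 34.8 TPM of the class I sum in sham and 893 ± 336 TPM in day 7 AMI. *B2m* stood at 305 ± 57.1, 610 ± 160 and 1434 ± 469 TPM, and *Cd74* at 98.2 ± 30.1, 160 ± 9.83 and 443 ± 239 TPM. TPM carries no TMM scaling, and on it the median gene was higher in the AMI groups than in sham, so these sums order genes within a group and do not measure the change between groups.

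*H2-Ke6* bears the prefix but encodes a hydroxysteroid dehydrogenase, and was the one member that fell in both AMI groups. It had 51.5, 60.7, 62.3 and 60.6 CPM in sham, 41.6, 39.1, 43.7 and 48.6 CPM in day 1 AMI, and 29.0, 24.1, 33.8 and 28.0 CPM in day 7 AMI. The 3 groups did not overlap. It fell by 0.44 ± 0.10 on day 1 (adjusted p = 0.00397) and by 1.03 ± 0.11 on day 7 (adjusted p = 1.93e-06) on the log2 scale. With libraries scaled by their totals alone the day 1 value was -0.18 (adjusted p = 0.248), and by 3 limma fits it was -0.11 (adjusted p between 0.458 and 0.603). The summed cardiomyocyte markers fell in the same order of groups, and their part in this was not tested. Most of the exon bases of *H2-Ke6*, 86.4%, overlap *Gm20427* on the same strand, and 65.5% of its 75-base stretches occur in that gene, so the split of reads between the 2 genes is uncertain. *H2-K2*, the 1 tested gene of the 8 counted as pseudogenes, had 0.386 to 0.782 CPM over all hearts and did not pass. Among the 23 untested genes the highest count was 16, in *H2-M5*, and the 8 M region heavy chain genes at 0 counts include *H2-M1*, *H2-M11* and 6 *H2-M10* genes.

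Of the 4 hearts of day 7 AMI, replicate 4 was the highest in 17 of 18 tested class I genes and in 9 of 10 class II genes. Among sham hearts, replicate 2 was the highest in 10 of the 18 class I genes and in 0 class II genes, and replicate 4 in 6 class II genes. How often these hearts were the highest over all tested genes was not counted. Whether the pattern is particular to the MHC genes is therefore not known. In the same day 7 heart, the immunoproteasome subunit *Psmb9* was at 30.7 CPM against 12.6 to 12.9 CPM in the other 3, and *Ifng*, which encodes interferon-γ, had 15 counts, or 0.510 CPM, against at most 0.116 CPM in any of the other 11 hearts. Summed neutrophil markers there were 37.5 CPM against 7.26 to 11.9 CPM, and red blood cell genes 969 CPM against 241 to 660 CPM. T cell markers were 8.30 CPM against 4.40 to 6.57 CPM, and pan-leukocyte markers 221 CPM against 130 to 211 CPM. Macrophage markers were 1085 CPM against 770 to 1186 CPM. The part of these in the levels of that heart was not tested. Without replicate 4, 14 class I and 10 class II genes were still above sham on day 7 at an FDR below 0.05, with median log2 FCs of 1.02 and 1.59, and 9 and 10 of them were DEGs. From day 1 to day 7 without that heart, 6 class I and 7 class II genes rose, with medians of 0.26 and 0.88. *H2-Aa*, *H2-Eb1* and *H2-Oa* were then at 1.17, 1.19 and 2.09, and *Nlrc5*, *H2-K1* and *Tap1* at 0.15, 0.22 and 0.20 (adjusted p = 0.631, 0.431 and 0.365).

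**Figure D5:**
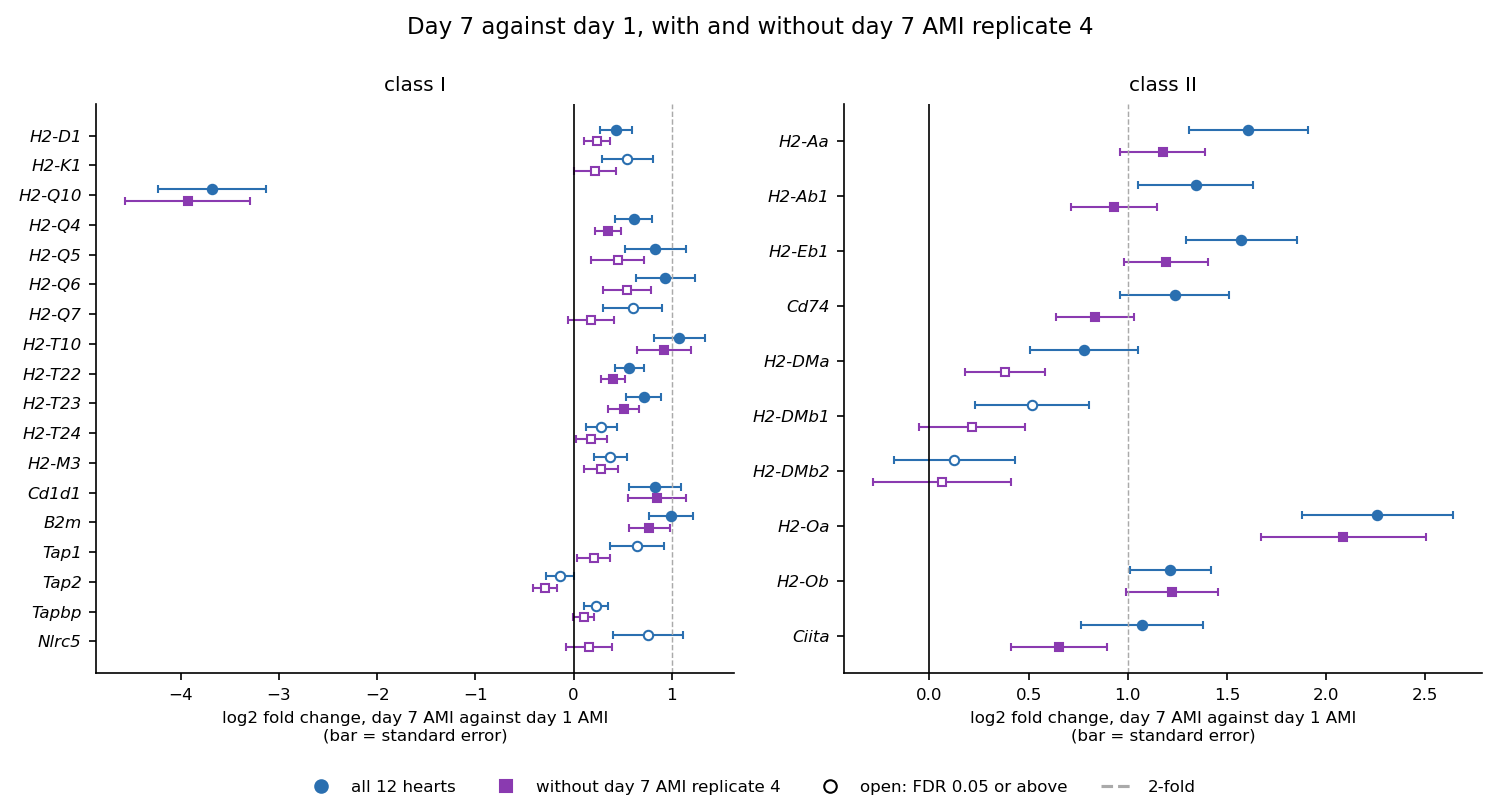
Log2 FC of day 7 AMI against day 1 AMI (x axis) with its standard error for 18 class I and 10 class II genes, from all 12 hearts (blue) and without day 7 AMI replicate 4 (purple), where filled points have an FDR below 0.05. Most values move towards 0 without that heart, *H2-Aa* from 1.61 to 1.17 and *Nlrc5* from 0.76 to 0.15, and *H2-Q10* stays far below 0.

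Other genes of the pathway, 34 by list and 31 of them tested, were measured beside the members. As DEGs, 3 were higher in day 1 AMI against sham, 7 in day 7 AMI against sham and 1 between day 1 and day 7, and 0 were lower, where 7.79%, 15.3% and 8.55% of all tested genes were higher DEGs. By FDR alone, 11, 16 and 9 of 31 rose, beside 22.0%, 30.9% and 24.2% of all tested genes, and 4, 5 and 7 fell, beside 19.9%, 28.4% and 22.8%. The count of DEGs on day 1 and between the AMI groups, and both FDR counts between the AMI groups, lie near or below these shares. The median log2 FCs were 0.22, 0.26 and 0.13. In class I processing, the immunoproteasome subunits *Psmb8* and *Psmb9* were 1.08 ± 0.18 and 1.22 ± 0.26 above sham on day 7, while the chaperones *Calr* and *Canx*, which fold heavy chains, fell from day 1 to day 7 by 0.72 ± 0.16 and 0.53 ± 0.10. *Calr* was at 269 to 318 CPM in sham, 421 to 483 CPM in day 1 AMI and 226 to 409 CPM in day 7 AMI. *Canx* was at 238 to 301, 265 to 347 and 199 to 230 CPM in the same groups. In class II processing, *Ctss*, the protease that trims the invariant chain, rose by 1.87 ± 0.26 on day 1 and was 3.02 ± 0.27 above sham on day 7, and *Ifi30*, which reduces disulphide bonds of antigens, rose by 1.74 ± 0.24 and 1.76 ± 0.24. Among the regulators, *Rfx5*, a subunit of the factor that binds MHC promoters, fell by 0.40 ± 0.11 on day 1 and rose by 0.91 ± 0.11 from day 1 to day 7 (adjusted p = 0.0105 and 1.95e-05). The regulators *Rfxank* and *Rfxap* moved otherwise. *Rfxank* was at 19.5 to 23.9 CPM in sham, 26.3 to 36.0 CPM in day 1 AMI and 20.6 to 24.0 CPM in day 7 AMI. *Rfxap* was at 11.3 to 16.7, 13.5 to 16.7 and 9.08 to 12.0 CPM in the same groups. *Cd40*, the receptor through which T cells license antigen-presenting cells, rose on both days, by 0.62 ± 0.19 and 1.54 ± 0.19.

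Macrophage marker sums rose with the groups, dendritic cell markers were mixed on day 1, and the B cell sums, given with the DO genes, overlapped across the groups. Macrophage markers, 8 of 8 tested, summed to 264 to 414 CPM in sham, 487 to 704 CPM in day 1 AMI and 770 to 1186 CPM in day 7 AMI, with 6 of 8 up on day 1 and 8 of 8 on day 7 by FDR. Dendritic cell markers, 7 of 7 tested, summed to 24.2 to 26.7, 27.5 to 32.0 and 38.6 to 46.3 CPM, with 3 up and 1 down on day 1 and 5 up on day 7, where *Ccr7* was at 0 in 1 sham heart. From sham to day 1 AMI, *Itgax* went from 0.437 to 0.835 CPM to 4.16 to 8.07 CPM. *Zbtb46*, the largest part of the sum, was at 18.9 to 21.6 CPM in sham and 17.7 to 19.9 CPM in day 1 AMI. *Clec9a* was at 2.45 to 3.78 and 1.84 to 2.57 CPM. Pan-leukocyte markers, 3 of 3, were at 36.8 to 58.6, 120 to 168 and 130 to 221 CPM, and T cell markers, 4 of 5 tested, at 1.31 to 1.83, 1.61 to 4.21 and 4.40 to 8.30 CPM. Neutrophil markers, 5 of 6 tested, were at 2.25 to 53.6, 37.0 to 129 and 7.26 to 37.5 CPM, and *Ly6g* was at 0 in 6 hearts. Endothelial markers, 5 of 5, were at 798 to 910, 613 to 658 and 971 to 1083 CPM. The part of any of these cells in the MHC genes was not tested.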

How the data were processed

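RNA of 12 whole hearts was sequenced as 150-bp paired-end reads. The authors made base calls with CASAVA 1.8, trimmed reads with Cutadapt and aligned them to mm10 with STAR 2.4.0j. The deposited raw counts per gene come from these alignments, and the counting tool, its strand setting and its handling of reads that match several genes are not given in the sources used here. TPM values were made by the authors with RSEM.

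Groups followed the sample labels. The counts were fitted with edgeR 4.0.16 (R 4.3.3; quasi-likelihood test, TMM, filterByExpr, Benjamini-Hochberg adjustment) in 1 model of 12 libraries, and 15306 of 53801 genes passed the filter. A single gene rose or fell at an FDR under 0.05, and a DEG also changed at least 2-fold. Log2 CPM for ratios used a prior count of 2. Ratios were compared by exact two-sided permutation tests. SE is the standard error of a log2 FC. All tested members could be named. The fit was tested on simulated data. Alternatives were DESeq2 1.42.0, its size factors, no filter, only the groups compared, a replicate block, limma 3.58.1 on log2(TPM + 1) and log2(TPM + 0.1), FDR alone, ratios of TPM + 1 and each heart left out. Scaling by library totals alone was added after seeing the data. The members and lists were chosen with earlier results of these data known. Replicates are separate mice. No pair of libraries in a group agreed within sampling noise (lowest chi-square per degree of freedom 8.84). Floors cover counting error only.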

Additional observations from a re-analysis of the deposited data

Results flagged for a closer look

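In 10 of 96 sets of 4 hearts, for 1 member in 1 group, the most extreme heart lay far from the other 3 by Dixon's test, which chance does in about 1 of 20 sets. Among class I genes, day 7 AMI replicate 4 stood at 42.1 CPM for *Nlrc5* against 13.1 to 14.0 CPM and at 81.8 CPM for *Tap1* against 31.3 to 35.0 CPM. Sham replicate 2 stood at 22.9 CPM for *Tap1* against 14.5 to 15.5 CPM and at 103 CPM for *Tapbp* against 82.7 to 83.9 CPM. Among class II genes, *H2-Aa* was at 33.3 CPM in day 1 AMI replicate 4 against 38.7 to 39.5 CPM, and *H2-Oa* at 0.0631 CPM in the same heart against 0.179 to 0.196 CPM. *H2-DMb1* was at 3.44 CPM in sham replicate 1 against 1.68 to 1.82 CPM, and *H2-DMb2* at 0.734 CPM in day 7 AMI replicate 2 against 1.08 to 1.16 CPM. *Cd80* was at 4.44 CPM in day 7 AMI replicate 1 against 1.77 to 1.82 CPM, and *H2-Ke6* at 51.5 CPM in sham replicate 1 against 60.6 to 62.3 CPM.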

How the results depend on the processing

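Depth limits the genes near 3 counts a library (*H2-Q10*, *H2-Oa*, and in sham *H2-DMb2* and *Cd80*, with 3 to 10 counts each). By FDR alone, higher members numbered 17 in place of 10 DEGs in day 1 AMI against sham and 19 in place of 9 in day 7 against day 1 AMI, class I 12 in place of 5 and 9 in place of 1, and lower members 1 in place of 0 and 2 in place of 1. The class I count of 5 on day 1 was 9 by limma on log2(TPM + 0.1) and 8 by library totals alone, and the class II count of 4 was 2 by limma on log2(TPM + 1), with or without its filter. Between day 1 and day 7, the class I count of 1 was 2 by DESeq2, without the filter and by limma on log2(TPM + 1), with or without its filter, 4 by limma on log2(TPM + 0.1) and 3 by library totals, and the class II count of 7 was 4 by limma on log2(TPM + 1), with or without its filter. The lower DEG of day 7 AMI against sham, 1 gene, became 0 by the 3 limma fits and by library totals. Leaving out each heart gave 0 to 1 for that count, 5 to 12 for all higher members and 0 to 4 for class I between day 1 and day 7, and 4 to 7 for class II. The causes were not tested. Library totals moved the median of all genes by 0.27, 0.40 and 0.13 and limma on log2(TPM + 1) by 0.28, 0.45 and 0.17 (log2). The share of DEGs that were higher, 72.3%, 72.3% and 76.1%, became 89.0%, 92.0% and 84.7% by library totals and 93.7%, 95.9% and 86.8% by limma.

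Values that did not pass turned sign as follows. In day 1 AMI against sham, *Cd1d1* was 0.041 (log2(TPM + 1), with or without its filter) and 0.10 by limma, *H2-T24* 0.11 and 0.12 by limma and 0.13 by library totals, *H2-K2* 0.11 by limma without a filter and 0.18 by library totals, and *H2-Oa* 0.039 and 0.18 by the same. Leaving out each heart gave *H2-K2* -0.19 to 0.025, above 0 without sham replicate 4 (0.012) or day 1 AMI replicate 1, and *H2-Oa* -0.21 to 0.19, above 0 without sham replicate 3 (0.15) or day 1 AMI replicate 4. In day 7 AMI against sham, *H2-K2* was 0.15 and 0.18 by the same, and *H2-Q10* 0.017 by limma on log2(TPM + 0.1). Leaving out each heart gave *H2-Q10* -0.72 to 0.19, above 0 without sham replicate 2, and *Tap2* -0.060 to 0.20, below 0 without day 7 AMI replicate 4. Between day 1 and day 7, *Tap2* was 0.098 and 0.10 and *H2-K2* 0.038 by limma, and *H2-DMb2* ran from -0.023 without day 1 AMI replicate 2 to 0.37. With TPM + 1 the *Ciita* to *Nlrc5* differences were -0.26, -0.28 and -0.026, and leaving out each heart gave -0.20 to 0.41 for the first, which was below 0 without sham replicate 1 or 2 (-0.17). The *Cd74* to *B2m* difference of day 7 AMI against sham ran from -0.34 to 0.097, above 0 without day 7 AMI replicate 3 (0.0050), sham replicate 3 or sham replicate 4 (0.062).

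Replicate numbers did not pair the hearts: correlations of deviations ran from -0.24 to 0.23, 4 of 12 pairs were above 0.1 and 2 hearts correlated best with their own number. With the replicate block, class I had 2 higher DEGs and class II 6 between day 1 and day 7, and *H2-D1*, *H2-DMa* and *H2-Q5* did not pass there (adjusted p = 0.0708, 0.0528 and 0.0829). It ended no other call of a single member.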
